A study of Mus musculus with 18 samples.

Results

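The genes described here are the TCF/LEF transcription factors Lef1, Tcf7, Tcf7l1 and Tcf7l2, and 6 genes known as Wnt targets that act back on the pathway, Axin2, Sp5, Nkd1, Rnf43, Znrf3 and Dkk1. They were chosen by symbol, 10 of the 14804 genes in the expression tables of mouse embryonic stem cells (ESCs), trophoblast stem cells (TSCs) and extra-embryonic endoderm (XEN) cells. The ESC table held 9 of them among 13578 genes (all but Dkk1). There were 9 among the 13518 TSC genes (all but Sp5) and 7 among the 11538 XEN genes (all but Lef1, Sp5 and Nkd1). The study asked how these cells respond to low oxygen. Each cell type was profiled by bulk RNA-seq in normoxia (20% O2) and after 2 or 7 days of hypoxia (2% O2). There were 2 libraries from biological replicates for each condition, 18 together. ESCs were wild-type E14 cells grown without feeders on gelatin in serum and LIF. TSCs, for which no line name was given, were grown on feeder fibroblasts with FGF4 and heparin, so their RNA can hold feeder RNA. XEN cells, also with no line name, were grown on gelatin in partly feeder-conditioned medium. No genotype or drug differed between the conditions of a cell type.

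In canonical Wnt signalling, a Wnt ligand bound to a Frizzled receptor and an LRP co-receptor stops the destruction complex, which AXIN and APC scaffold, from degrading beta-catenin. Beta-catenin then enters the nucleus and binds TCF/LEF proteins on DNA. Of these, TCF7L1 is known in ESCs mostly as a repressor, and LEF1 and TCF7 more often as activators. Many of the activated genes damp the signal: AXIN2 rebuilds the destruction complex, NKD1 binds Dishevelled, RNF43 and ZNRF3 are membrane ubiquitin ligases that remove Frizzled receptors, DKK1 is secreted and blocks LRP co-receptors, and SP5 is a zinc-finger transcription factor.

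Promoter bases are shown for the 4 genes on which the ESC and XEN results below turn, Lef1 and Sp5 in ESCs and Axin2 and Dkk1 in XEN cells. They are from RefSeq on GRCm38.p6, read 5′ to 3′ on the gene's strand, and those of Lef1, Sp5 and Axin2 end just before the first RefSeq start. Capitals mark the letters CTTTGAT, which TCF/LEF proteins are known to bind. Lef1 is at chr3:131110047-131110296 on the plus strand, Sp5 at chr2:70474673-70474922 on the plus strand, Axin2 at chr11:108920099-108920348 on the plus strand, and Dkk1 at chr19:30549666-30549746 on the minus strand. The Dkk1 stretch is shorter: it holds 81 bases and stops ahead of its RefSeq start, because the annotated gene already reaches to 30549665 and bases within it are not shown.
Lef1: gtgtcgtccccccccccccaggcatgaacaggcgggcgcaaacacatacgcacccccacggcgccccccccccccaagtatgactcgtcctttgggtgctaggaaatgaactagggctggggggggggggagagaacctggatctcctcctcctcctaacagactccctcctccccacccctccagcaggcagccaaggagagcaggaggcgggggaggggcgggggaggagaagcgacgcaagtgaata
Sp5: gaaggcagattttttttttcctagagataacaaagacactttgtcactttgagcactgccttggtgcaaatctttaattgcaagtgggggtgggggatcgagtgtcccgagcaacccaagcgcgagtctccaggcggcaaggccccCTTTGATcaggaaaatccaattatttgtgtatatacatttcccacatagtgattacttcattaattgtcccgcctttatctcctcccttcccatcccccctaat
Axin2: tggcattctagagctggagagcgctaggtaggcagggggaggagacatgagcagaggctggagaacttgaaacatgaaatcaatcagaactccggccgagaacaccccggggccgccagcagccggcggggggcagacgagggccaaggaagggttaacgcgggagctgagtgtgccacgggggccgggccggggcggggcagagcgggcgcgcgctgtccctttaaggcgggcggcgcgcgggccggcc
Dkk1: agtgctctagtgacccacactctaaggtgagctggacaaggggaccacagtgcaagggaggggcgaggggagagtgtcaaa

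RefSeq windows of 300 bases (250 before to 50 after a start) were matched for 9 of the 10 genes (not Znrf3), 15 windows in all. Searched on both strands, CTTTGAT stood in 1 of these windows, that of Sp5, with its first letter 104 bases before the start. Over all 32851 windows of the RefSeq table, 3.73% held it. The hypoxia response element core ACGTG stood in 2 of the 15 windows (of Lef1 and Tcf7l2) and in 19.6% of all windows. GCGTG stood in 4 of the 15 windows (of Tcf7l1, Tcf7l2, Nkd1 and Rnf43) and in 32.4% of all windows. The Lef1 match was at a start inside the gene, not in the bases printed above, and there ACGTG and its reverse overlapped. These matches describe the letters only.

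The deposited values are TPM, a length-scaled share of each library (transcripts per 1000000), and are used below as TPM for changes of 1 gene between conditions. They turned out to be scaled by gene span, introns included, so that a long gene reads low. Levels of different genes are therefore compared as exon-length TPM, recomputed from the same values with the summed exon length. Whether reads in introns had been counted is not given in the sources used here. If they were, exon-length TPM overstates genes with long introns, such as Tcf7l1, whose span is 41.5 times its exon length. The values of Tcf7 did not all come out as whole reads by the span used, so its exon-length TPM and shares are less certain. Between 35592641 and 75204029 reads per library were recovered from the TPM. Each table was normalized on its own, so levels set beside each other across cell types are descriptions with no test.

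The markers of each label were present in its libraries, and some of the other cell types' markers were too. In ESCs, 6 markers of pluripotency (Pou5f1, Nanog, Sox2, Zfp42, Klf4 and Dppa5a) summed to between 7554 and 9821 exon-length TPM. The 6 TSC markers summed to between 4556 and 10962 in TSCs, most of it Krt8, and the 6 XEN markers to between 2570 and 3100 in XEN cells. Pou5f1 and Sox17 were not in the TSC table, and Nanog, Sox2, Cdx2 and Eomes were not in the XEN table. Other markers were shared: in TSCs, Sox2 was at 43.5 to 350 and Zfp42 at 72.2 to 172 exon-length TPM, and in XEN cells Klf4 was at 336 to 642 and Krt8 at 967 to 1704. Of 8 genes known to respond to hypoxia, 7 were over 1.5-fold higher with no overlap between libraries in ESCs on day 2 and 6 on day 7. The same counts were 7 and 3 of 8 in TSCs and 6 and 5 of 7 in XEN cells. In TSCs, Pdk1, a kinase that restrains pyruvate dehydrogenase, was at 15.5 and 14.5 TPM in normoxia, 89.6 and 82.0 at 2 days and 15.6 and 15.2 at 7 days, so its day 7 values were back at the normoxic level. Feeder fibroblast markers varied most between TSC libraries, from 145 to 1394 exon-length TPM summed over 7 genes, highest in normoxia replicate 1 and next in day 2 replicate 2. In ESCs, day 2 replicate 2 was the highest of the 6 libraries for Lef1, Tcf7 and Nkd1 and the lowest for Sp5. It was also above day 2 replicate 1 for the 8 hypoxia genes, among them Ndufa4l2 (217 against 41.5 TPM) and Bnip3 (74.9 against 29.0 TPM). The genes named here were singled out after their values were seen.

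Each cell type had its own mix of TCF/LEF factors, in normoxia and in hypoxia. In ESCs, Tcf7l1 was the most abundant factor in every library at 123 to 200 exon-length TPM, ahead of Tcf7 at 73.2 to 129, Lef1 at 13.5 to 46.7 and Tcf7l2 at 5.34 to 7.28. In TSCs, Tcf7 (231 to 352) and Tcf7l1 (169 to 302) overlapped, Tcf7l2 followed at 16.0 to 28.0, and Lef1 was lowest at 0.171 to 1.46. In XEN cells, Tcf7l1 led at 117 to 222, Tcf7l2 was at 32.0 to 55.5 and Tcf7 at 3.79 to 5.66.

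**Figure D1:**
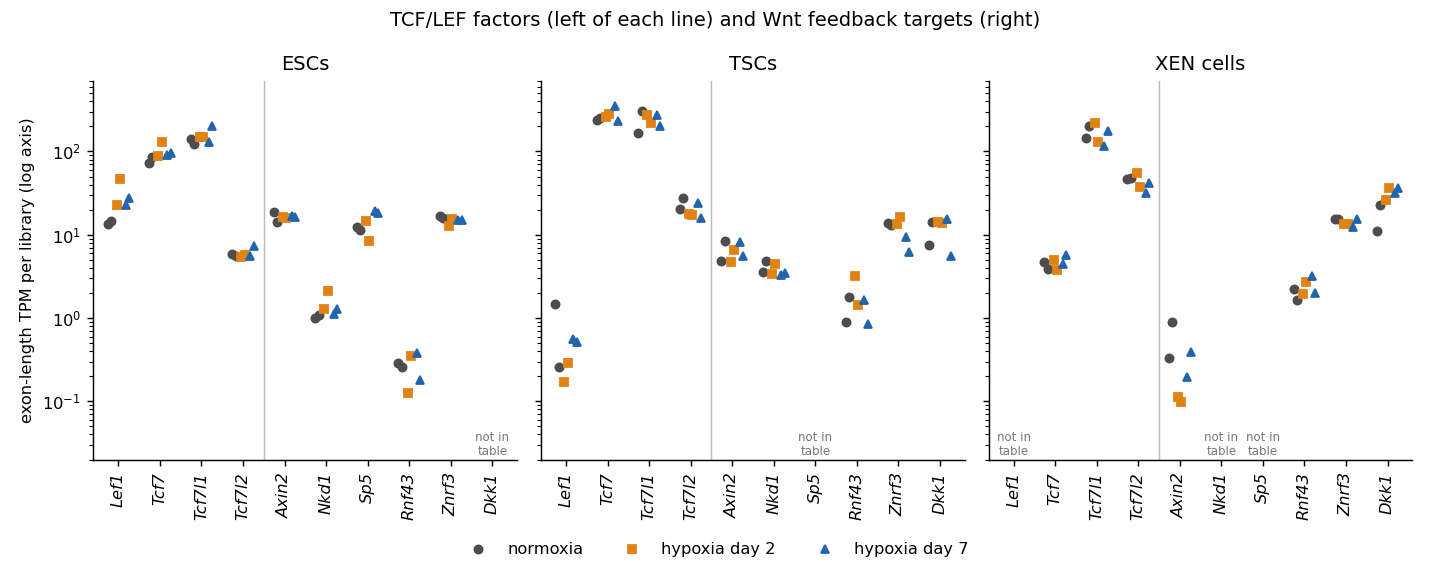
Exon-length TPM of each gene (log axis) in each library of ESCs, TSCs and XEN cells; circles are normoxia, squares day 2 and triangles day 7 of hypoxia, and the grey line parts factors from feedback targets. Lef1 lies between 13.5 and 46.7 in ESCs but at 1.46 or less in TSCs, and Tcf7 is at 5.66 or less in XEN cells.

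Shares within a library do not depend on how a table was normalized. As a share of the family's exon-length TPM, Tcf7l1 made up 45.0 to 60.7% in ESCs (median 54.9%), 39.4 to 51.9% in TSCs (median 43.8%) and 73.9 to 79.5% in XEN cells (median 77.4%). Tcf7 made up 28.9 to 39.1% in ESCs, 43.3 to 55.6% in TSCs and 1.52 to 2.94% in XEN cells, ranges that did not overlap. Tcf7l2 made up 18.8 to 23.8% in XEN cells but 1.75 to 2.47% in ESCs and 3.21 to 4.80% in TSCs. Lef1 made up 5.74 to 14.1% in ESCs and 0.0312 to 0.342% in TSCs. The order within a cell type depended on the length used: on the deposited TPM, Tcf7 was the largest share in ESCs (median 58.6%) and in TSCs (median 78.7%), and Tcf7l1 had medians of 26.3% and 18.4%. The contrasts between cell types kept their direction on both scales, with a Tcf7 median of 6.46% in XEN cells and a Lef1 median of 13.5% in ESCs against 0.0941% in TSCs.

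**Figure D2:**
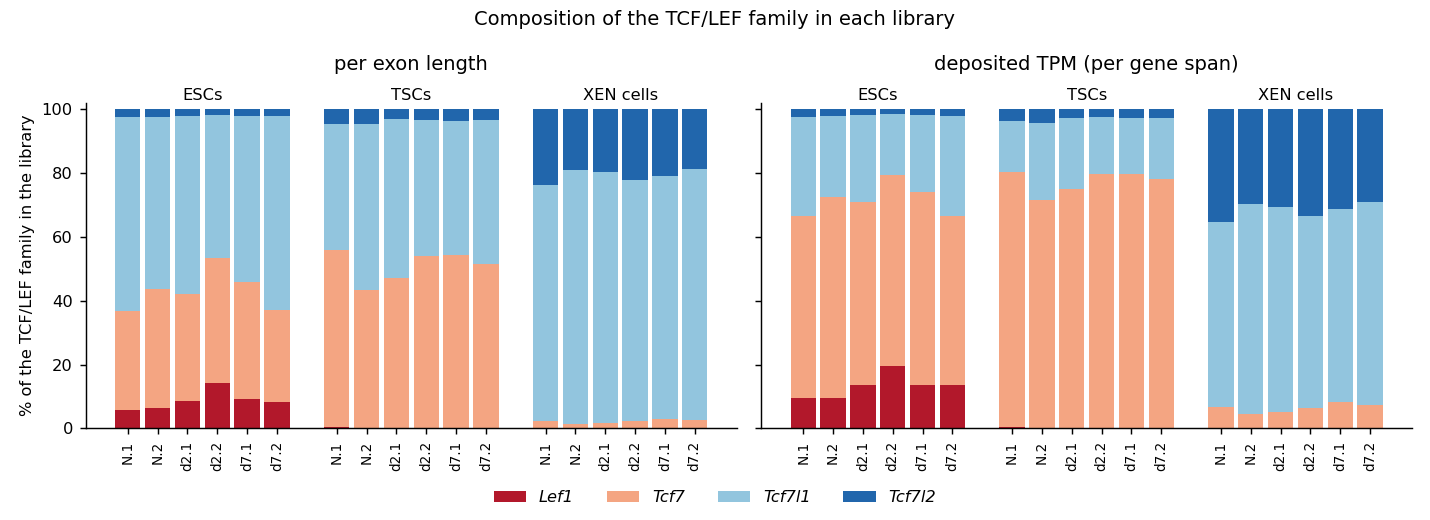
Share of Lef1, Tcf7, Tcf7l1 and Tcf7l2 in the summed TCF/LEF level of each library, by exon length (left) and by the deposited TPM (right); N is normoxia, d2 and d7 are days of hypoxia, and the last digit is the replicate. XEN libraries are mostly Tcf7l1 and Tcf7l2, with Tcf7 at 2.94% or less by exon length, and Lef1 is visible in ESCs.

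Lef1 was the factor that stood highest above normoxia in hypoxic ESCs, though not past the test. Its TPM was 3.14 and 3.29 in normoxia, 5.21 and 10.8 at 2 days and 5.25 and 6.27 at 7 days. All 4 hypoxic libraries were above both normoxic ones, and day 2 and day 7 overlapped. The fitted change on the log2(TPM + 0.1) scale was 1.20 on day 2 (SE 0.333, a 2.30-fold difference with a 95% interval of 1.35 to 3.93) and 0.82 on day 7 (SE 0.333, 1.76-fold, 1.03 to 3.01). Adjusted over all genes by Benjamini-Hochberg, p was 0.779 on day 2 and 0.556 on day 7 (limma). Lef1 was therefore not called at the thresholds of an adjusted p of 0.1 and 1.5-fold. The paper, which used a different test on read counts, reports Lef1 as upregulated after 2 days. Its share of the TCF/LEF family by exon length was 5.74% and 6.34% in normoxia, 8.66% and 14.1% at 2 days and 9.11% and 8.25% at 7 days. Without day 2 replicate 1, the day 2 change was 1.72 with an adjusted p of 0.0469, and without day 2 replicate 2 it was 0.68 with an adjusted p of 0.793. Each of these fits has 1 day 2 library, which is assumed to vary like the other groups, so the size of the change, more than its p, shows how far the 2 day 2 libraries stood apart.

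The other factors differed less in ESCs. Tcf7 was at 18.9 and 21.5 TPM in normoxia, 22.3 and 33.2 at 2 days and 23.5 and 24.4 at 7 days, with all hypoxic libraries above both normoxic ones but under 1.5-fold in the fit (1.35-fold on day 2, 95% interval 0.977 to 1.86, and 1.19-fold on day 7, 0.860 to 1.63). Tcf7l1, the repressive member, was at 10.4 and 8.72 in normoxia, 10.5 and 10.8 at 2 days and 9.33 and 14.4 at 7 days. Tcf7l2 stayed between 0.722 and 0.992 TPM in the 6 libraries, with conditions that overlapped.

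In TSCs, no factor was past 1.5-fold in the fit without overlap. Tcf7 was at 64.8 and 67.1 TPM in normoxia, 70.3 and 75.2 at 2 days and 93.7 and 58.4 at 7 days, Tcf7l1 ranged from 12.9 to 22.6 and Tcf7l2 from 2.17 to 3.98. Lef1 was low and uneven, at 0.359 and 0.0621 TPM in normoxia, 0.0419 and 0.0707 at 2 days and 0.133 and 0.117 at 7 days. These rest on 139 and 26, 19 and 32, and 59 and 55 reads. Both day 7 libraries were above both day 2 libraries, with means 2.22-fold apart, and the pseudocount of 0.1 brought the fitted difference to 1.44-fold (95% interval 0.639 to 3.27). Normoxia replicate 1, with the most Lef1 (1.46 exon-length TPM), also had the highest feeder marker sum (1394), while day 2 replicate 2, with a sum of 747, had a Lef1 level of 0.291. The part of feeder RNA in Lef1 was not tested.

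**Figure D3:**
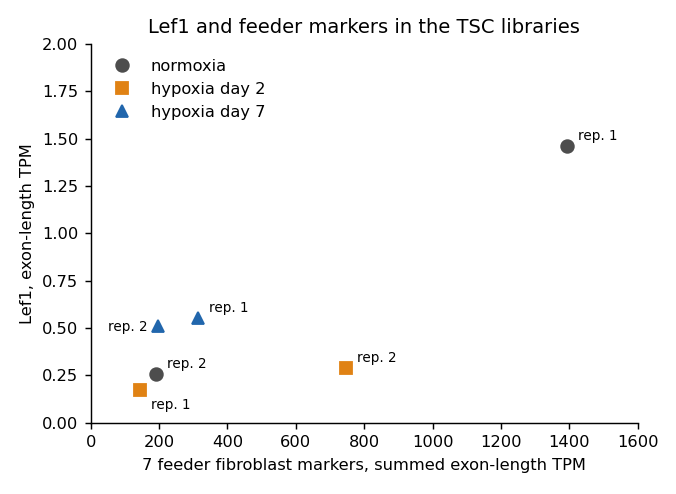
Lef1 (y axis, exon-length TPM) against the summed exon-length TPM of 7 feeder fibroblast markers (x axis) in the 6 TSC libraries; each point is a library, marked by condition and replicate. Normoxia replicate 1 is at the upper right (1394 and 1.46), and the other 5 libraries have Lef1 at or below 0.555.

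In XEN cells, none of the 3 factors in the table was past 1.5-fold in the fit without overlap. Tcf7l1 was at 11.4 and 15.7 TPM in normoxia, 17.9 and 10.1 at 2 days and 9.13 and 13.6 at 7 days. Tcf7l2 was at 6.99 and 7.09, 8.49 and 5.62, and 4.74 and 6.19, lower on day 7 without overlap but by 0.772-fold with an interval of 0.489 to 1.22. Tcf7 ranged from 1.06 to 1.57.

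Among the feedback targets, Axin2, a widely used readout of the pathway, lay within its normoxic spread in hypoxic ESCs. It was at 10.3 and 7.60 TPM in normoxia, 8.74 and 8.63 at 2 days and 9.04 and 8.90 at 7 days, so all 4 hypoxic values lay between the normoxic ones. The 95% interval of the fold difference was 0.709 to 1.35 on day 2 and 0.732 to 1.40 on day 7. In TSCs, Axin2 ranged from 4.70 to 8.40 exon-length TPM with conditions that overlapped, and the intervals of its fold difference were wider (0.451 to 1.69 and 0.527 to 1.98).

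In XEN cells Axin2 was close to the detection limit, at 0.192 and 0.526 TPM in normoxia, 0.069 and 0.0576 at 2 days and 0.113 and 0.227 at 7 days. The reads behind these values were 19 and 85, 11 and 9, and 13 and 18. Day 2 was below normoxia without overlap, with a fitted log2 change of -1.39 (SE 0.426, adjusted p = 0.533), and day 7 was above day 2 without overlap, by 0.69 (SE 0.426, adjusted p = 0.504). Without normoxia replicate 2, the library with 85 reads, the day 2 change was -0.84 (adjusted p = 0.787), and with a pseudocount of 1 in place of 0.1 it was -0.34.

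Sp5 was higher in ESCs on day 7 but not on day 2, again short of the test. It was at 28.0 and 25.3 TPM in normoxia, 32.2 and 18.9 at 2 days and 43.0 and 40.1 at 7 days. Both day 7 libraries were above the other 4, and day 2 overlapped normoxia. Day 7 differed from normoxia by 0.64 on the log2 scale (SE 0.232, 1.56-fold with an interval of 1.07 to 2.26, adjusted p = 0.495) and from day 2 by 0.75 (SE 0.232, adjusted p = 0.744). With the 4 libraries compared alone in the fit, the day 7 difference had the same size. Its adjusted p of 0.0748 (limma) passed, in a fit that called 285 of 13578 genes. For this difference, the fits without day 2 replicate 1 or 2 take their spread from the same 4 libraries, so they are not separate results. Against day 2, the difference was 1.13 without day 2 replicate 1 (adjusted p = 0.0469) and 0.37 without day 2 replicate 2 (adjusted p = 0.713), each with 1 day 2 library.

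Nkd1 was low in ESCs, at 0.190 and 0.195 TPM in normoxia, 0.233 and 0.394 at 2 days and 0.211 and 0.237 at 7 days, from 44 to 150 reads. In TSCs it was at 0.708 and 0.933, 0.669 and 0.880, and 0.630 and 0.631. The fitted changes stayed under 1.5-fold in both cell types, although in ESCs both day 2 libraries were above normoxia, with means 1.63-fold apart.

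Znrf3 and Rnf43, the paired ubiquitin ligases, were unequal in all 3 cell types. Znrf3 made up 97.5 to 99.0% of the pair's exon-length TPM in ESCs, 81.0 to 93.8% in TSCs and 79.4 to 90.3% in XEN cells, and its smallest share on the deposited scale was 66.8%. Znrf3 was steady in ESCs (1.76 to 2.36 TPM) and in XEN cells (1.90 to 2.35 TPM). In TSCs it was at 2.05 and 1.91 TPM in normoxia, 2.01 and 2.43 at 2 days and 1.39 and 0.853 at 7 days, with both day 7 libraries below the other 4. The log2 change on day 7 was -0.80 against normoxia (SE 0.349, adjusted p = 0.501) and -0.96 against day 2 (SE 0.349, adjusted p = 0.142). The median over all TSC genes was itself -0.19 and -0.25 in these comparisons, and relative to it the changes of Znrf3 were -0.61 and -0.71. The difference from day 2 was called in 2 other fits, on reads recovered from the TPM (-0.88, adjusted p = 0.0779, voom) and on exon-length TPM (-0.95, adjusted p = 0.0983). Those fits called 1858 and 1988 of 13518 genes. Some markers of the stem cell state were lower too. Elf5, a trophoblast stem cell transcription factor, was at 60.4 and 56.6 TPM in normoxia, 82.5 and 85.1 at 2 days and 18.8 and 14.7 at 7 days. Of 6 TSC markers, 4 were called lower and 1 (Krt8) higher on day 7 against day 2, where 14.5% of all genes were called. The other marker, Tfap2c, was at 295 and 314 exon-length TPM on day 2 and 385 and 385 on day 7. Their part in the change of Znrf3 was not tested. In these bulk samples fewer cells of a type and less RNA per cell cannot be told apart.

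Rnf43 was near the detection limit in ESCs, with 12 to 36 reads per library. It ranged from 0.226 to 0.903 TPM in TSCs and from 0.486 to 0.943 in XEN cells, and its conditions overlapped in all comparisons with normoxia.

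Dkk1 was the feedback target that stood above normoxia in hypoxic XEN cells, without passing the test. It was at 23.2 and 46.6 TPM in normoxia, 56.1 and 75.4 at 2 days and 66.0 and 74.7 at 7 days, from 286 to 1471 reads. All hypoxic libraries were above both normoxic ones, which themselves differed by more than the gap to day 2. The log2 change was 0.98 on day 2 (SE 0.331, 1.98-fold with an interval of 1.14 to 3.43, adjusted p = 0.566) and 1.09 on day 7 (SE 0.331, 2.13-fold, 1.23 to 3.70, adjusted p = 0.440). The 2 normoxic libraries decide its size. Without normoxia replicate 1 the change was 0.48 on day 2 (adjusted p = 0.722) and 0.59 on day 7 (adjusted p = 0.981), and without normoxia replicate 2 it was 1.49 (adjusted p = 0.399) and 1.60 (adjusted p = 0.0588, which passes). Each of these fits has 1 normoxic library, which is assumed to vary like the other groups. In TSCs, Dkk1 was at 15.2 and 28.2 TPM in normoxia, 28.5 and 28.1 at 2 days and 30.4 and 10.4 at 7 days, with conditions that overlapped against normoxia and replicates of day 7 that stood further apart than any group means.

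**Figure D4:**
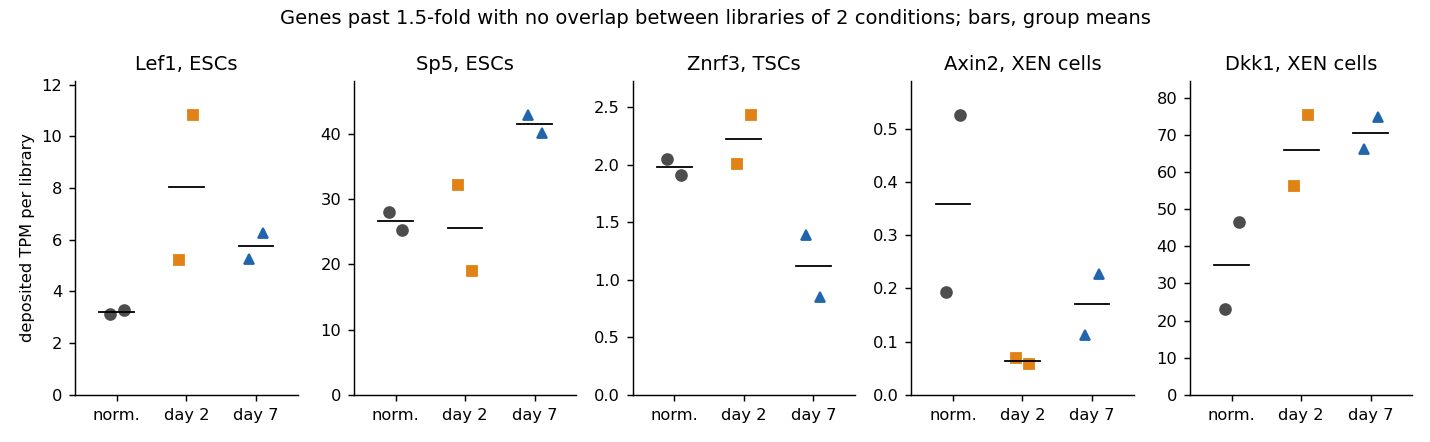
Deposited TPM in each library (points) and group means (bars) of the 5 genes that passed 1.5-fold in the fit with no overlap between libraries of at least 1 pair of conditions. Lef1 and Dkk1 are higher in every hypoxic library than in normoxia, Sp5 is higher on day 7 only, Znrf3 is lower on day 7, and Axin2 is lowest on day 2.

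None of the genes was called in any of the 9 comparisons by limma. In ESCs, 0 of 9 were called on day 2 and 0 of 9 on day 7, where 0.0% and 0.552% of all genes were, and 0 of 9 on day 7 against day 2, where 0.155% of all genes were. In TSCs the counts were 0 of 9 against backgrounds of 0.0888%, 0.178% and 14.5%, and in XEN cells 0 of 7 against 0.0%, 0.139% and 0.00867%, in the same order of comparisons. At an unadjusted p under 0.05 (limma), the counts in ESCs were 1, 2 and 1 of 9, beside 717, 1166 and 632 of all 13578 genes. In TSCs they were 0, 0 and 1 of 9, beside 1704, 1403 and 3645 of 13518. In XEN cells they were 2, 1 and 0 of 7, beside 900, 1049 and 1362 of 11538. Few genes of any kind were called outside the comparison of TSC days, so an absence of calls says little about these genes.

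Counted by fitted size alone, 1 of 9 genes in ESCs was past 1.5-fold without overlap on day 2 (Lef1; 4.79% of all genes were), 2 of 9 on day 7 (Lef1 and Sp5; 8.26%) and 1 of 9 on day 7 against day 2 (Sp5; 4.49%). In TSCs the counts were 0 of 9 on day 2 (17.3% of all genes), 1 of 9 on day 7 (Znrf3; 15.2%) and 1 of 9 on day 7 against day 2 (Znrf3; 33.8%). In XEN cells they were 2 of 7 on day 2 (Dkk1 higher and Axin2 lower; 9.53%), 1 of 7 on day 7 (Dkk1; 10.2%) and 1 of 7 on day 7 against day 2 (Axin2; 13.9%). No overlap alone, at any fold, held for 4, 5 and 2 of 9 genes in ESCs, beside 30.9%, 41.3% and 25.2% of all genes. In TSCs it held for 2, 2 and 3 of 9, beside 46.6%, 40.9% and 58.6%. In XEN cells it held for 3, 2 and 1 of 7, beside 40.9%, 41.1% and 47.6%. The median log2 change of the genes was -0.030 and 0.15 in ESCs on days 2 and 7, beside 0.011 and 0.029 over all genes. In TSCs it was 0.12 and -0.21 beside 0.070 and -0.19, and in XEN cells 0.0018 and -0.14 beside -0.0086 and -0.030. Days 2 and 7 share the normoxic libraries, so their agreement in direction is not independent.

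**Figure D5:**
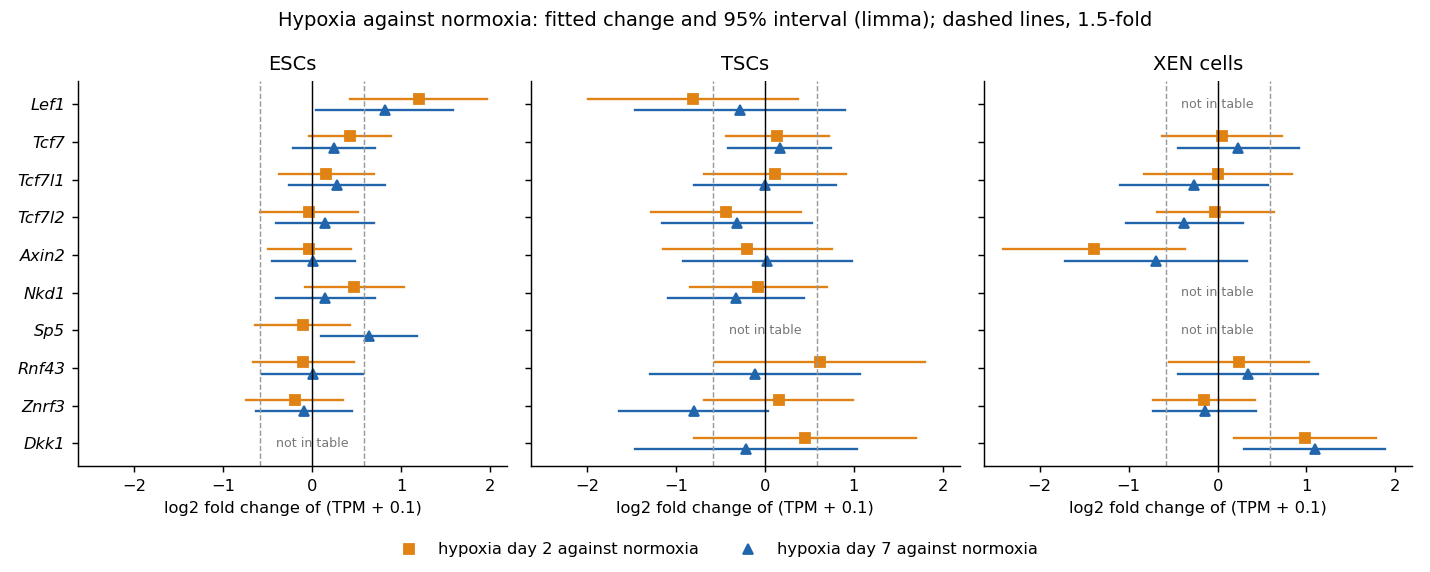
Fitted log2 fold change (x axis, log2 of TPM + 0.1) with its 95% interval for each gene on day 2 (squares) and day 7 (triangles) of hypoxia against normoxia, in each cell type; dashed lines mark 1.5-fold. Intervals leave 0 for Lef1 on both days and Sp5 on day 7 in ESCs, and for Axin2 on day 2 and Dkk1 on both days in XEN cells.

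The rest of the pathway gives the setting. Of 97 other Wnt pathway genes, 78 were in the ESC table, 80 in the TSC table and 57 in the XEN table. In ESCs, 2 of 78 were called, both higher on day 7 than in normoxia, where 0.552% of all genes were called. The ligand Wnt3, which drives primitive streak formation in the embryo, was at 0.304 and 0.307 TPM in normoxia, 0.354 and 0.521 at 2 days and 1.48 and 1.03 at 7 days, a log2 change of 1.72 on day 7 (SE 0.269, adjusted p = 0.0627). T (brachyury), a Wnt target and the defining transcription factor of the streak, was at 4.16 and 3.45 TPM in normoxia, 4.17 and 5.80 at 2 days and 19.0 and 15.8 at 7 days, a log2 change of 2.16 (SE 0.234, adjusted p = 0.0188; against day 2, adjusted p = 0.0669). Of 12 ligands in the ESC table, 4 were past 1.5-fold higher without overlap on day 7 and 1 was lower, beside 8.26% of all genes in either direction. Among them, Wnt4 went from 0.370 and 0.525 to 3.60 and 1.07 TPM and Wnt7b from 2.78 and 1.54 to 5.38 and 3.88. Porcn, the enzyme that acylates Wnt ligands for secretion, was at 17.4 and 14.9 TPM in normoxia and 27.1 and 23.0 on day 7 (adjusted p = 0.247). The secreted inhibitor Sfrp1 was at 18.7 and 15.8 TPM in normoxia and 9.01 and 10.9 on day 7, a log2 change of -0.79 (adjusted p = 0.320). None of the 15 receptors, 15 destruction complex genes and 10 nuclear cofactors in the table was past 1.5-fold without overlap on day 7. Although ESCs were grown without feeders, 2 of the 4 feeder fibroblast markers in their table were called higher on day 7, among them Col1a1 at 1.58 and 1.53 TPM in normoxia and 15.1 and 6.05 on day 7. Thy1, another of the 4, was not higher, at 15.3 and 13.6 exon-length TPM in normoxia and 13.5 and 14.4 on day 7. The 4 markers summed to between 14.5 and 28.1 exon-length TPM, a sum that includes Thy1. Dcn, Lum and Postn were not in the table. The part of feeder RNA in these results was not tested.

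In TSCs, most of the pathway genes that were called were lower on day 7 than on day 2, as were most called genes of any kind. The median log2 change of the 80 genes in the table was -0.39 against normoxia and -0.46 against day 2, beside -0.19 and -0.25 over all genes, and 15 of 80 were called lower and 1 higher against day 2. Over all genes 14.5% were called in that comparison, 1682 lower and 281 higher. Against normoxia, 1 of 80 was called lower and 0 higher. Of the 6 TSC markers, 4 were called lower on day 7 than on day 2. Among these, Elf5, Cdx2 and Eomes fell by 2.32, 1.69 and 1.55 on the log2 scale. Krt8 was called higher, by 1.23, and Tfap2c was at 295 and 314 exon-length TPM on day 2 and 385 and 385 on day 7. The part of these markers in the change of the pathway genes was not tested. Cdx2 is also on the pathway list, among the reported targets. The ligand Wnt6 was at 19.1 and 14.3 TPM in normoxia, 50.6 and 33.8 at 2 days and 2.97 and 3.91 at 7 days, a log2 change of -3.56 between the days of hypoxia (SE 0.303, adjusted p = 0.0106). The secreted inhibitor Sfrp5 was at 3.57 and 3.69, 13.4 and 7.00, and 0.901 and 0.565 TPM (log2 change -3.58, SE 0.411, adjusted p = 0.0196), and Rspo1, which shields receptors from RNF43 and ZNRF3, at 2.00 and 1.98, 2.61 and 2.90, and 0.544 and 0.320 TPM (-2.45, SE 0.341, adjusted p = 0.0230). The receptor Fzd5 was the gene called higher, from 48.7 and 64.6 to 214 and 122 TPM (1.52, SE 0.303, adjusted p = 0.0415). T was low, at 0.547 and 0.910 TPM in normoxia and 1.80 and 1.65 at 2 days, and was listed at 0 in both day 7 libraries. It was called lower on day 7 against both day 2 and normoxia, by sizes that depend on the pseudocount of 0.1. The other genes called lower against day 2 were Wnt7b, the receptors Lrp5 and Fzd9, Rspo4, the inhibitor Sfrp2, the tankyrase Tnks2 and the reported targets Bambi, Cdx2, Kremen2, Tnfrsf19 and Apcdd1, with log2 changes from -2.43 (Sfrp2) to -0.77 (Wnt7b and Lrp5). Of these, Tnfrsf19 (0.112 and 0.192 TPM on day 2) and Rspo4 (0.443 and 0.404 TPM) were low, so the pseudocount bears on their changes. In XEN cells no gene of the list was called. Wnt11 was at 25.5 and 20.1 TPM in normoxia, 41.9 and 70.8 at 2 days and 77.2 and 81.2 at 7 days (adjusted p = 0.140 on day 7), Frzb, a secreted Frizzled-related inhibitor, at 4.90 and 12.9 in normoxia and 30.4 and 45.2 on day 7 (adjusted p = 0.245), and the receptor Fzd2 at 49.0 and 63.0 in normoxia and 119 and 112 on day 7 (adjusted p = 0.255).

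As a description of pattern, the genes most like Lef1 over the 12 ESC and TSC libraries were Cpn1 (Pearson r 0.993), Plxdc1 (0.989) and Map7d3 (0.988), among genes in both tables that hold Lef1. The r with Axin2 was 0.893 and with Tcf7 -0.900, values set by the difference between cell types. With each library taken relative to its cell type's mean, they were -0.198 and 0.473. Axin2 was most like Zfp977 (0.987), Pes1 (0.982) and Fkbp5 (0.980) over 18 libraries. Its r with Tcf7 was 0.846, and 0.0463 relative to the mean of each cell type. Libraries of a cell type share a table and its normalization.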

How the data were processed

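RNA was measured in 18 libraries of ESCs, TSCs and XEN cells, 6 per cell type. The authors trimmed reads with cutadapt (2.4), aligned them to mm10 with STAR (2.7.5a), ran StringTie (2.0.6) and featureCounts, filtered to protein-coding genes with more than 0.4 CPM in 2 or more of the 6 libraries (edgeR 3.26.8), and deposited TPM. Each cell type has its own table, in which every library sums to 1000000. Columns labelled day 0 were taken as normoxia. No column was left unmapped.

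Multiplied by gene span from GENCODE (VM21, mm10 coordinates; end minus start), 98.7 to 98.9% of the deposited TPM came out within 0.05 of whole reads, against 9.90 to 10.6% by exon length. Of recovered values from 10 to 200 reads, 61.7 to 64.2% were even, and whether reads of a pair were counted apart is not given in the sources used here. Tcf7 did not come out whole in all libraries of any of the tables, and its reads are rounded. The paper names an earlier GENCODE release. If the span of Tcf7 differed there, its reads, exon-length TPM, family shares and rank would be off by a common factor. This was not tested. Its TPM changes between conditions do not use the span.

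Main fit: limma (3.58.1, R 4.3.3), log2(TPM + 0.1), with a variance trend, on all genes and 6 libraries of a cell type, with no block. Adjusted p is Benjamini-Hochberg over all genes of the table. A gene was called at an adjusted p of 0.1 or less and over 1.5-fold, the thresholds of the study. The study applied them in a different test, on read counts rather than log2 TPM, so its calls and those here can differ. The paper reports Wnt3, Wnt4, Wnt7a and Wnt7b as significantly upregulated in hypoxic ESCs, and of these only Wnt3 was called here. The log2 changes understate those of low genes. With 2 replicates a group, p-values rest on variance shared between genes. Members and lists were chosen with earlier results of these data known. Every member is given with its values, with full statistics where it was past 1.5-fold without overlap; other pathway genes are named where called, and some of those among the 3 largest such changes per list and direction. The fit and the recovery of reads were tested on simulated data. Python (3.11.15), numpy (2.4.6), pandas (2.3.3) and matplotlib (3.10.9) were used. Alternatives were other pseudocounts, filters, scalings, gene lengths, variance models, fewer libraries, voom on recovered reads and a replicate block.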

Additional observations from a re-analysis of the deposited data

Results flagged for a closer look

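Nkd1, which encodes a Dishevelled-binding inhibitor, was flagged because its day 7 libraries lay on opposite sides of normoxia in different cell types. In ESCs the 2 day 7 libraries were both above normoxia, with a fitted log2 change of 0.147, and in TSCs both were below it, with a change of -0.323. The difference between the cell types was not tested, both changes were under 1.5-fold, and the adjusted p was 0.963 in ESCs and 0.756 in TSCs (limma). Such a separation is common: on day 7 against normoxia, 41.3% of all ESC genes and 40.9% of all TSC genes had no overlap.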

How the results depend on the processing

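Across 162 pairs of comparison and setting, the count of called genes stayed at 0 in 154 and was 1 in 8. In ESCs, Sp5 was called on day 7 against normoxia with only the 4 libraries compared (count 1). Leaving out 1 library at a time gave counts from 0 to 1 in ESCs on day 2 (Lef1), on day 7 against normoxia (Sp5) and on day 7 against day 2 (Sp5, log2 change 1.13, adjusted p = 0.0469, without day 2 replicate 1, but 0.37, adjusted p = 0.713, without day 2 replicate 2), and in XEN cells on day 7 against normoxia (Dkk1). In TSCs, Znrf3 was called on day 7 against day 2 with voom (count 1) and with exon-length TPM (count 1). Of all 13518 TSC genes, 1858 and 1988 were called in these fits. Where leaving out 1 library led to a call, more genes of any kind were called in that comparison than in the main fit. The Sp5 calls on day 7 against normoxia without a day 2 library take their spread from the same 4 libraries, so they are not separate results. The cause of the changes in count was not tested, except that the Sp5 fits use fewer libraries.

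The day 2 libraries of ESCs decide much of the spread of that cell type: over all genes, 75 were called on day 7 against normoxia, but 288 and 285 without day 2 replicate 1 or 2, and 285 from the 4 libraries alone. Leaving out any 1 of the normoxic or day 7 libraries lowered the count, with 1 library then left in that group.

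Of 176 values of single genes, 0 changed direction. Axin2 in XEN cells was left out by the filter on TPM above 0.4 and has no value in 2 settings. Its day 2 change ranged from -2.44 to -0.34. Lef1 on day 2 in ESCs ranged from 0.68 to 1.72, and Dkk1 in XEN cells from 0.48 to 1.49 on day 2 and from 0.59 to 1.60 on day 7.

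A replicate block left the count of called genes at 0 in all 9 comparisons. Deviations of same-numbered libraries correlated between -0.48 and 0.283 over genes. These values cannot settle whether same-numbered libraries were cultured or processed together, which the labels do not say. Genes with under 100 reads in a library (Rnf43 and Nkd1 in ESCs, Lef1 and Rnf43 in TSCs, Axin2 in XEN cells) carry the least precise values.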
